A study of Mus musculus with 131 samples.

Results

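Postnatal demethylation far from genes in mouse hepatocytes comprised 25544 tiles of 200 bp. These were the tiles of the whole-genome bisulfite sequencing (WGBS) table in which methylation was at least 35 percentage points lower in adult wild-type (WT) than in newborn hepatocytes, and which lay more than 50 kb from the start-to-end interval of every gene in the expression table. They made up 19.4% of the 131967 tiles with such a fall, of 8067987 tiles with a value in both libraries (1.64%). A further 71656 falling tiles lay inside genes and 34767 lay outside but within 50 kb of one. Because the distal tiles were selected on newborn and adult WGBS values, those values are given as a description without a test.

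Hepatocytes, the main epithelial cells of the liver, had been purified from C57Bl mice, and every WGBS and histone group was a single library. WGBS covered WT newborns (1 week), uninjected adult WT mice (15 weeks) and 15-week double knockout (DKO) mice, in which floxed Tet2 and Tet3 had been removed by an adeno-associated virus (AAV8) carrying Cre under the hepatocyte-specific thyroid-binding globulin promoter, injected at 1 day of age. Reduced representation bisulfite sequencing (RRBS) was given as 100 bp tiles and one column per mouse or culture. It covered 2 uninjected WT mice of 3 weeks and 15-week WT controls given the same virus at 1 day (n = 3) or at 3 weeks (n = 3). Also covered were 15-week DKO mice injected at 1 day (n = 2) or at 3 weeks (n = 2). In 2 further mice the insulin receptor was deleted in hepatocytes after birth (InsR KO, age not given in the labels). The other columns were 2 cultures of newborn hepatocytes, with no genotype in the labels. The study's methods describe such cultures as unsorted newborn liver cells, which were grown for several weeks. Peaks were available for H3K4me1 and H3K27ac in hepatocytes (1 uninjected adult WT and 1 DKO library injected at 1 day), for ATAC-seq accessibility and HNF6 binding (2 WT and 2 DKO libraries each, labelled as liver with no age), and for 5-hydroxymethylcytosine (5hmC; 1 WT hepatocyte library at 20 days, without an input). The study's methods describe the ATAC protocol for hepatocytes. RRBS also covered 1 neutrophil sample (WT, 36 weeks) and 1 fat sample (WT, 25 weeks). Expression was given for 18 hepatocyte libraries. Uninjected WT mice were of 1 week (n = 1), 3 weeks (n = 3) and 15 weeks (n = 3). WT controls given the virus at 1 day (n = 3) or at 3 weeks (n = 3) were 15 weeks old. DKO mice injected at 1 day (n = 3) or at 3 weeks (n = 2) were of the same age.

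Methyl groups on CpG dinucleotides can be removed after TET enzymes oxidise 5-methylcytosine, first to 5hmC. Enhancers, the regulatory elements that act on promoters over a distance, usually carry H3K4me1, gain H3K27ac when active, sit in accessible chromatin and lose DNA methylation when transcription factors bind them. In liver, HNF4, C/EBP, FOXA, HNF1 and the ONECUT factor HNF6 are among the factors known to act at hepatocyte enhancers.

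Sequences of 6 distal tiles are shown because they span the range of the findings below, with each CpG in capitals, on the plus strand of mm9 (NCBIM37). The first pair are distal tiles in ATAC peaks of both WT libraries and WT peaks of both histone marks, among the 5 with the greatest falls of such tiles. The third lay in no peak of any of the 13 libraries and was chosen after its values were seen. The last 3 had the greatest WGBS falls among distal tiles with RRBS values in every hepatocyte column.
chr1:107823401-107823600, nearest gene Zcchc2: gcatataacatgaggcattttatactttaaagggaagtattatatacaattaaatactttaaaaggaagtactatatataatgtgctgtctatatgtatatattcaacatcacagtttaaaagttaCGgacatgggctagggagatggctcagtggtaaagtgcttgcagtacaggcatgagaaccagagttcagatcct
chr15:13775601-13775800, nearest gene Cdh6: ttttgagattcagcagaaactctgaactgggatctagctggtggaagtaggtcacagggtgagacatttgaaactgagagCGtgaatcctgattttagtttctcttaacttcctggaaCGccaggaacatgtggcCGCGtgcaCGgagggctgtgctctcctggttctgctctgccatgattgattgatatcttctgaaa
chr1:153140401-153140600, nearest gene Ivns1abp: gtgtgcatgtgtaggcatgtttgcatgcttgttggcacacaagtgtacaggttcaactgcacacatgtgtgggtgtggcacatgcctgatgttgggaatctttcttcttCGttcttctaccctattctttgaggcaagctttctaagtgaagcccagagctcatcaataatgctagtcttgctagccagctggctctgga
chr10:24255001-24255200, nearest gene Ctgf: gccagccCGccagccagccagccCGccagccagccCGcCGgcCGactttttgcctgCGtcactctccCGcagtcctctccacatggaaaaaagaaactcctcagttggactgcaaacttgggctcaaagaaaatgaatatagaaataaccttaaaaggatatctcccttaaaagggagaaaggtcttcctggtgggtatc
chr9:62893601-62893800, nearest gene Pias1: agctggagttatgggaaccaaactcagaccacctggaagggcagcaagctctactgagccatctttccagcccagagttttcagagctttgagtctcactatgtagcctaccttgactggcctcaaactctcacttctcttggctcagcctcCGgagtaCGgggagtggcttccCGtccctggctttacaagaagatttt
chr8:122794601-122794800, nearest gene Fam92b: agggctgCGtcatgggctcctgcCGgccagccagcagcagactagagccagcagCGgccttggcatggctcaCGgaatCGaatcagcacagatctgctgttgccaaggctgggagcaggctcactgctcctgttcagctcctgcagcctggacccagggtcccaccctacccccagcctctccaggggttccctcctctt

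The tile near Zcchc2, 63.4 kb from that gene, held 1 CpG and went from 96.4% methylation in newborn to 0% in adult WT, with 85.4% in the DKO. The tile 672 kb from Cdh6, which encodes a cadherin, held 5 CpGs, a match to the ONECUT core and peaks of HNF6 and ATAC in all 4 libraries of each assay. Its methylation was 89.3% in newborn, 1.18% in adult WT and 84.3% in the DKO. The unmarked tile near Ivns1abp held 1 CpG and went from 95.45% to 0%, with 84.6% in the DKO. The last tile lay in an intron of Gm20388, a protein-coding gene of GENCODE M1 from which distances were not measured, while the other 5 were intergenic in that annotation.

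Distal demethylation was less frequent than demethylation inside genes. Of tiles over 50 kb from a gene, 1.04% fell by at least 35 points, against 1.58% within 50 kb of a gene and 2.09% inside genes. Rises of the same size were rarer, 5909 tiles in the distal compartment, so that falls outnumbered rises 4.32-fold there and 7.51-fold inside genes. Within adult WT H3K4me1 peaks the distal compartment was the more affected of the pair, with 16.15% of its 40171 tiles falling against 11.15% inside genes, and falls outnumbered rises 51.5-fold (126 rises). Outside these peaks 0.791% of tiles over 50 kb from genes fell, and the ratio of falls to rises was 3.295.

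Adult methylation was lower at distal tiles in H3K4me1 peaks, a mark the selection had not used, than at those outside, with much overlap. In the 6487 tiles (25.4%) in an adult WT H3K4me1 peak, mean methylation was 73.95% in newborn, 17.9% in adult WT and 72.3% in DKO hepatocytes. In the 19057 tiles outside such peaks the means were 79.95%, 36.5% and 64.1%. Lower adult methylation in these peaks was not particular to falling tiles. Over all tiles more than 50 kb from genes, the adult WT mean was 49.6% in H3K4me1 peaks and 75.6% outside. Adult methylation was under 20% in 61.5% of the tiles in peaks and in 16.8% of those outside, so that most falls outside H3K4me1 were partial, although 3198 of the 7186 tiles under 20% lay outside.

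**Figure D1:**
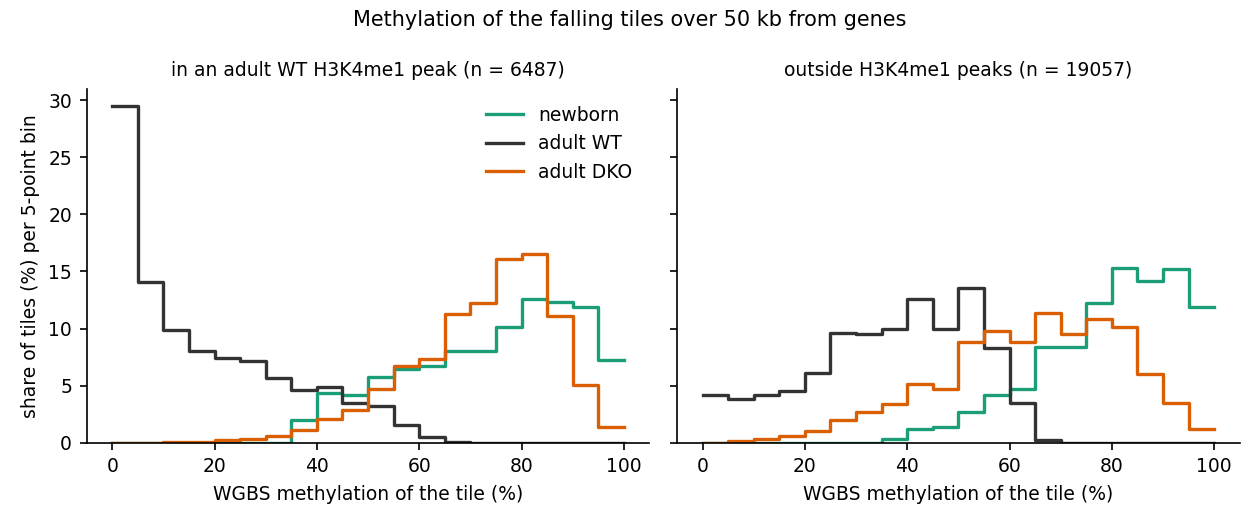
Distribution of WGBS methylation (%) over the 6487 distal tiles in an adult WT H3K4me1 peak and the 19057 outside, as the share of tiles per 5-point bin, with 1 library per line. In peaks the adult WT values pile up near 0 and the DKO values lie over the newborn values, whereas outside peaks the adult values centre near 40% and the DKO values lie between the other two.

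DKO methylation was high in both classes, with a median of 75% in H3K4me1 peaks and 66.0% outside, but its distance from adult WT differed. DKO methylation was at least 35 points above adult WT in 11391 distal tiles (44.99%, Wilson 95% interval 44.4 to 45.6%), where 1.98% of all tiles and 0.828% of all tiles over 50 kb from genes reached this difference. The share was 87.2% in H3K4me1 peaks and 30.5% outside. Since this difference and the selection share the adult WT library, the share is a description, and the higher adult values outside peaks leave less room for it. The DKO library was at least 35 points below the newborn library in 0.710% of tiles in H3K4me1 peaks and in 10.2% of those outside. Over all tiles more than 50 kb from genes, these shares were 0.177% in peaks and 0.611% outside. The newborn library also took part in the selection, so that these shares are a description too. DKO values differed from newborn values by a median of -2.63 points in peaks and -15.4 points outside, and by -3.58 points over all tiles over 50 kb from genes. Falling tiles inside genes had shares of 88.05% in H3K4me1 peaks and 61.0% outside, so that the 2 compartments had like shares within the mark and unlike shares outside it.

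Distal tiles with larger falls lay more often in H3K4me1 peaks and more often reached the DKO difference of 35 points. Of the 7012 distal tiles that fell by 50 points or more, 53.6% lay in an H3K4me1 peak and 87.5% were at least 35 points above adult WT in the DKO. Of the 18532 that fell by 35 to 50 points, 14.7% lay in such a peak and 28.9% reached that DKO level. Adult WT means were 16.5% at the larger and 37.6% at the smaller falls. The size of the fall and the DKO difference share the adult WT library, and a smaller fall leaves less room for that difference. These DKO shares are therefore a description. Just inside the limit, at 35 to 36 points, 2792 distal tiles averaged 78.3% in newborn, 42.8% in adult and 63.8% in DKO, and 8.10% lay in H3K4me1 peaks. Just outside, at 34 to 35 points, 2805 tiles averaged 78.05%, 43.6% and 63.6%, with 8.56% in H3K4me1 peaks, so that tiles on either side of the limit had like values.

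Distance from genes ordered the distal tiles strongly. The median distance to the nearest gene was 172 kb, with quartiles at 91.3 and 373.6 kb and a maximum of 2210 kb, and 1993 tiles were over 800 kb away. In bins of 50 to 100, 100 to 200, 200 to 400, 400 to 800 and over 800 kb, the share of distal tiles in an adult H3K4me1 peak was 39.1, 30.3, 18.5, 10.9 and 5.27%. Over the same bins the share of all tiles in such peaks dropped from 2.945 to 0.292%. The frequency of the fall itself hardly moved, between 0.974 and 1.12% of tiles in each bin.

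DKO values followed the same order. The share of distal tiles at least 35 points above adult WT in the DKO was 59.9% at 50 to 100 kb and 20.5% beyond 800 kb. Within H3K4me1 peaks this share was 88.3% in the nearest and 80% in the farthest bin, while outside peaks it was 41.4 and 17.1%. Adult WT methylation averaged 28.1% in the nearest bin and 37.3% in the farthest. In peaks these means were 17.9 and 18.3%, and outside 34.7 and 38.3%. By GENCODE M1, which lists more genes than the expression table, 1389 distal tiles (5.44%) overlapped a gene, 117 overlapped an exon and 17755 (69.5%) were over 50 kb from any gene, close to the shares of all tiles over 50 kb from genes (5.14, 0.5045 and 70.4%).

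**Figure D2:**
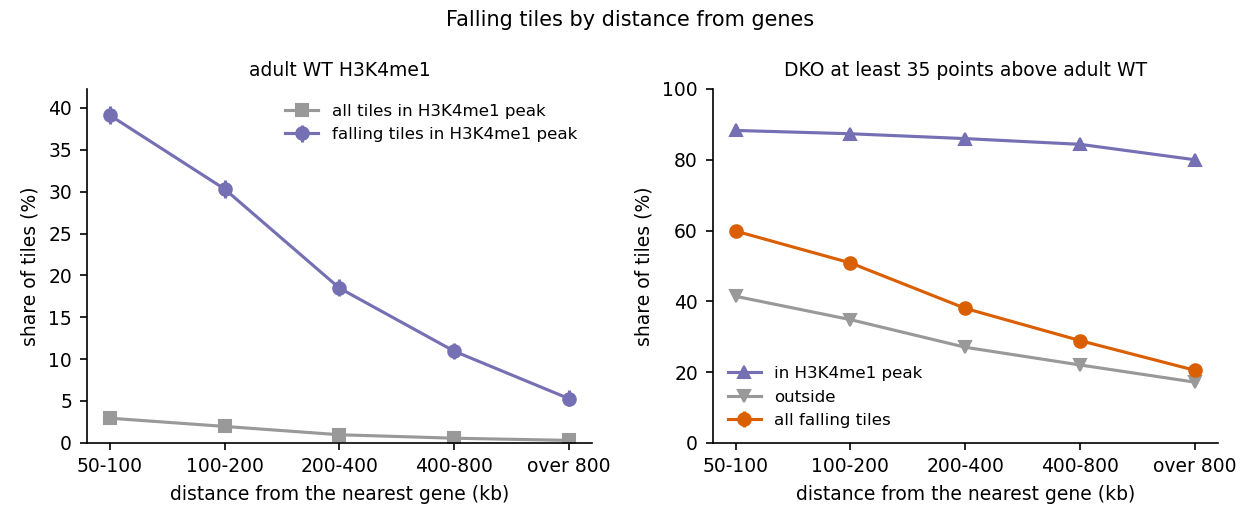
Share of tiles (%) against distance from the nearest gene (kb, 5 bins). The left panel shows tiles in an adult WT H3K4me1 peak for falling tiles and for all tiles, and the right panel the falling tiles with DKO methylation at least 35 points above adult WT. Vertical bars are Wilson 95% intervals. The share in H3K4me1 peaks goes from 39.1 to 5.27% of falling tiles, while the DKO share within peaks stays between 80 and 88.3%.

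Most distal tiles stood alone, and tiles in runs carried the enhancer mark. The 25544 tiles formed 23016 runs of touching tiles, of which 21116 (91.7%) were single tiles and 451 held 3 or more. H3K4me1 peaks covered 15.8% of single tiles, 63.98% of tiles in runs of 2, 82.9% of tiles in runs of 3 or 4 and 94.7% of the 207 tiles in the 36 runs of 5 or more. DKO methylation was at least 35 points above adult WT in 36.4, 82.6, 90.99 and 94.2% of these tiles.

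The 2 longest runs held 11 tiles each. One, at chr13:112726001-112728200, lay 126.8 kb from Map3k1, which encodes a kinase of the stress-activated cascades, and went from 68.7% in newborn to 5.865% in adult WT with 69.8% in the DKO. All 11 of its tiles lay in H3K4me1 and 5hmC peaks, 10 in H3K27ac peaks of WT and of DKO, and 2 or 3 in ATAC peaks of each library. The other, at chr6:31063201-31065400, 50.1 kb from the microRNA gene Mir29b-1, averaged 71.8% in newborn, 17.7% in adult WT and 69.9% in the DKO. The 50 kb limit cut this run short, since the touching tile nearer the gene also fell, from 93.75 to 30.2%. Both runs were thus near newborn methylation in the DKO, and H3K27ac peaks covered 10 and 11 of their tiles in either genotype.

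The 3 runs of 7 tiles differed in their marks. At chr10:24254201-24255600, 59.65 kb from Ctgf, which encodes connective tissue growth factor, methylation was 83.0, 4.46 and 74.4% in newborn, adult WT and DKO. H3K27ac peaks covered all 7 of its tiles in WT and 0 in the DKO, and H3K4me1 peaks covered 2 in WT and 4 in the DKO. At chr17:4867801-4869200, 125.9 kb from Arid1b, a subunit gene of the BAF chromatin remodelling complex, 7 tiles lay in H3K27ac peaks in WT and 1 in the DKO. At chr13:46259801-46261200, 107.9 kb from Stmnd1, 7 tiles lay in H3K4me1 peaks of WT and 0 of DKO, and none in H3K27ac or ATAC peaks. With 1 library per genotype these differences in peaks had no replicate check.

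Joined over gaps no longer than the stitching distance in common use for super-enhancers, the distal tiles formed 14652 groups. The greatest, 47 tiles over 51400 bp at chr6:31063201-31114600, began with the second of the longest runs and overlapped a pseudogene, Gm13835. Its start, like that of the run, was set by the 50 kb limit. H3K4me1 peaks of WT covered 46 of its tiles, H3K27ac peaks 45 in WT and 45 in the DKO, and 5hmC peaks 16. Mean methylation was 77.0% in newborn, 20.6% in adult WT and 75.3% in the DKO. The next, 46 tiles at chr2:167648401-167693000, lay 64.8 kb from Ptpn1, which encodes a phosphatase that acts on the insulin receptor. All 46 tiles lay in WT peaks of both marks. This group overlapped the processed transcripts 1200007C13Rik and Gm14319 of GENCODE M1, from which distances were not measured. The group of 37 tiles at chr2:67794001-67873800 near B3galt1, a galactosyltransferase gene, had 30 tiles in H3K4me1 and 19 in H3K27ac peaks of WT.

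**Figure D3:**
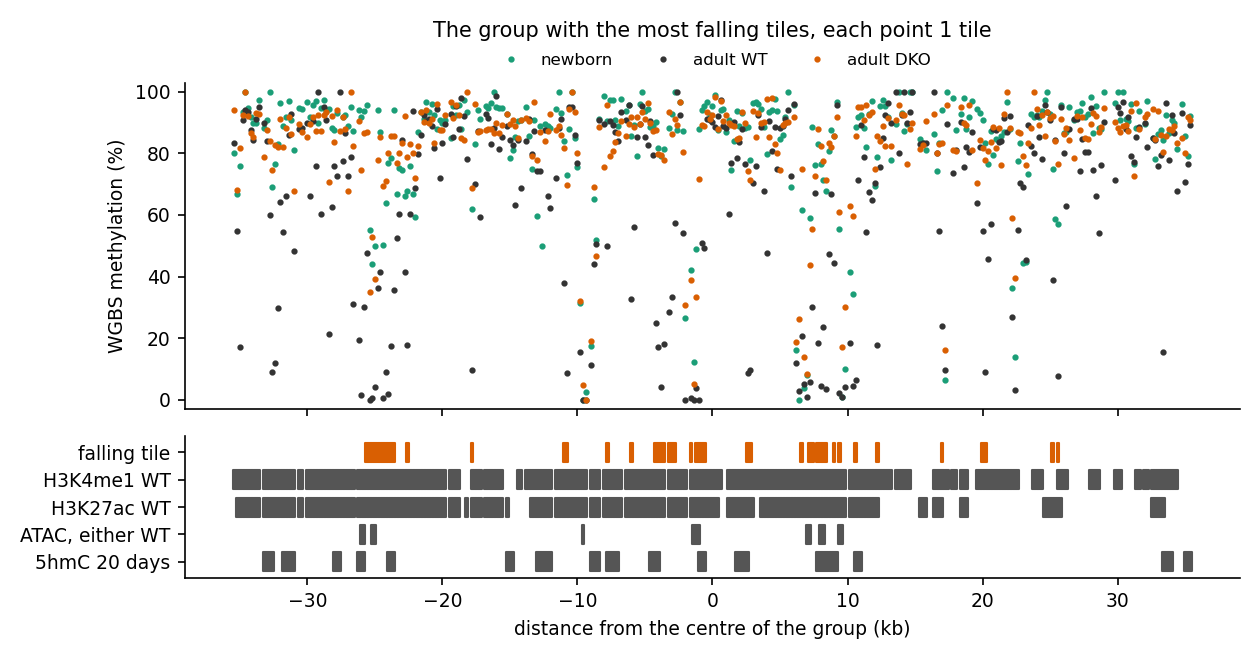
Map of the group with the most distal tiles, with distance from its centre (kb) on the x axis and flanks of the same kind on both sides. Upper panel, WGBS methylation (%) of each 200 bp tile in the newborn, adult WT and adult DKO library. Lower panel, positions of the 47 distal tiles and of peaks. The adult WT points drop below the newborn and DKO points in several short stretches, while peaks of both histone marks span most of the group.

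RRBS, whose values had no part in the selection, also gave higher methylation in DKO than in control mice. The labels do not say whether the WGBS libraries came from some of the same mice, and no newborn RRBS column was used. The RRBS data listed 1029 tiles of 100 bp within 810 of the distal tiles, 556 in and 473 outside H3K4me1 peaks. Single columns had values in 281 to 673 of them, and 205 had a value in every column used. Each mean below thus covers the tiles with a value in that column. Mean methylation in the distal tiles was 55.4 and 57.7% in the WT mice of 3 weeks, and 27.3, 27.8 and 27.8% in the controls injected at 1 day. It was 71.7 and 75.25% in the DKO mice injected at 1 day. The controls injected at 3 weeks had 30.3, 28.5 and 31.9%, and the DKO mice injected at 3 weeks had 55.85 and 56.7%. No DKO mouse overlapped its controls, and the DKO mice injected at 3 weeks lay between the 2 WT mice of 3 weeks.

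The mean of the distal tiles was 45.8 points (SE 1.78) higher in DKO mice injected at 1 day than in their controls, and 26.0 points (SE 1.07) higher in those injected at 3 weeks. The WT mice of 3 weeks were 27.6 points (SE 1.35) above the 6 injected controls, and InsR KO mice, at 42.3 and 50.1%, were 18.6 points (SE 3.90) above the controls injected at 1 day. Exact two-sided permutation tests gave p = 0.2 for the 3 comparisons of 2 with 3 mice and p = 0.0714 for that of 2 with 6, each the smallest such a design allows, and 0.2 for all 4 after Benjamini-Hochberg adjustment. Over all tiles more than 50 kb from genes the same 4 differences were 0.674, 0.855, -1.345 and -0.401 points. The effect of deletion was 19.8 points larger at 1 day than at 3 weeks (exact permutation of injection time within DKO and within control mice, 120 relabellings, two-sided p = 0.0167, the smallest they can give). In the expression libraries with the animal numbers of the 2 WT mice of 3 weeks, the Y-linked genes Ddx3y and Eif2s3y were at or near 0 (at most 0.0664 FPKM) and Xist was 48.0 and 77.1 FPKM, unlike all but one of the 15-week mice, so that age and sex cannot be told apart in that comparison. The exception, a control injected at 3 weeks with 88.1 FPKM of Xist, had 31.9% at the distal tiles.

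The H3K4me1 classes had unlike RRBS levels in the controls. The RRBS tiles outside peaks were an unlike subset in the DKO, since their 200 bp tiles averaged 71.6% in the WGBS DKO library against 64.1% for all those outside. In H3K4me1 peaks the distal tiles averaged 13.8% ± 0.556 (SD, n = 3) in controls injected at 1 day and 72.8% ± 3.31 (n = 2) in the matching DKO mice, a difference of 58.9 points. Outside peaks the averages were 43.4% ± 1.20 and 74.3% ± 1.585, a difference of 30.9 points. The DKO mice thus had like levels in both classes, and the controls did not: outside minus in peaks was 29.15 points over the 6 injected controls (range 27.3 to 31.5, exact sign-flip permutation p = 0.03125, the smallest 6 mice allow) and 1.54 points over the 2 DKO mice injected at 1 day. By distance, the 1-day difference was 52.1 points at 50 to 100 kb (496 listed RRBS tiles, 63.5% in H3K4me1 peaks). It was 48.1 points at 100 to 200 kb (304 listed tiles, 59.5%) and 29.8 points beyond (229 listed tiles, 26.2%). DKO means at these distances were 72.7, 74.9 and 73.3%, and control means 20.6, 26.8 and 43.5%.

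Compared with falling tiles inside genes, distal tiles were 7.24 points ± 0.638 (SD, n = 6) more methylated in the injected controls, higher in 6 of 6 mice (exact sign-flip permutation p = 0.03125, as in each of the 4 such tests over these mice). This direction depended on the mark. In H3K4me1 peaks distal tiles were 4.16 points less methylated than falling tiles of genes in the same mice (a difference of -4.16, below 0 in 6 of 6), and outside peaks they were 13.4 points more methylated, higher in 6 of 6. The effect of deletion at 1 day was 11.1 points smaller in distal tiles than in genes (difference -11.1 points), but differed by 0.0168 points within H3K4me1 peaks and by -17.4 points outside. Exact permutation gave p = 0.2, 0.8 and 0.2 for these, where 0.2 is the smallest possible.

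**Figure D4:**
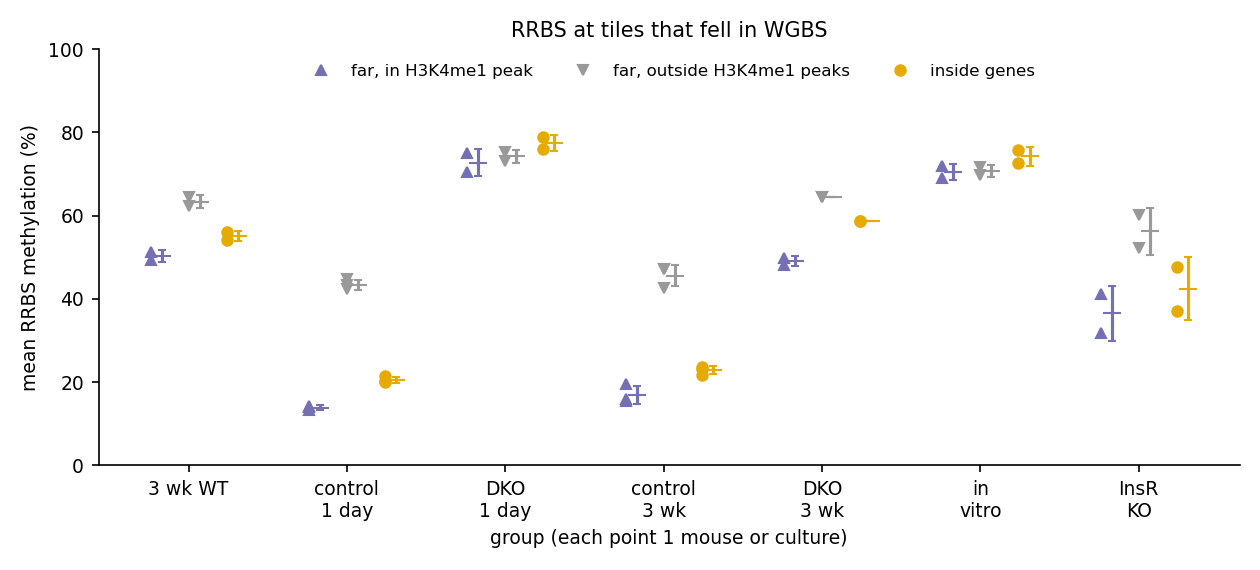
Mean RRBS methylation (%) per mouse or culture in tiles selected on WGBS, with distal tiles in and outside adult WT H3K4me1 peaks and falling tiles inside genes. Horizontal marks and bars beside the points are the mean ± SD of each group. Controls injected at 1 day sit near 13.8% in marked and 43.4% in unmarked distal tiles, and the matching DKO mice lie above 70% in both.

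At the level of single RRBS tiles, 467 in the distal tiles had values in all 5 mice of the 1-day comparison. The DKO mean was at least 35 points above the control mean in 319 of them (68.3%), against 2.23% of all RRBS tiles. Both DKO mice were above all 3 controls in 371 (79.4%), against 10.1% of all RRBS tiles over 50 kb from genes. In H3K4me1 peaks these shares were 88.5 and 97.0%, and outside 47.8 and 61.6%, so that unmarked distal tiles also stood above the background.

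The 3 tiles with RRBS values in every hepatocyte column, shown above, differed in their timing. The tile near Ctgf had 3.77 and 14.2% in the WT mice of 3 weeks, 0% in all 6 injected controls, 60.1 and 79.2% in the DKO mice injected at 1 day, and 0.621 and 1.28% in those injected at 3 weeks. It was thus demethylated at 3 weeks, and deletion at that age was followed by a level as low as in controls. The tile near Pias1, which encodes a SUMO ligase that restrains STAT factors, had 71.97 and 87.5% at 3 weeks, 0 to 8.60% in the 6 controls, 66.9 and 89.0% in the DKO mice injected at 1 day and 64.8 and 83.5% in those injected at 3 weeks. This tile was still methylated at 3 weeks and stayed so after either deletion. The tile near Fam92b had 0 and 12.3% at 3 weeks, 0 to 7.84% in the controls, 82.3 and 65.0% after deletion at 1 day and 4.00 and 13.45% after deletion at 3 weeks.

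Hepatocyte cultures, neutrophils and fat were more methylated than the injected controls at the distal tiles. The 2 cultures of newborn hepatocytes, grown from unsorted liver cells by the study's methods, averaged 70.85 and 70.3%, near the DKO mice injected at 1 day. Neutrophils (WT, 36 weeks) averaged 77.4% and fat (WT, 25 weeks) 54.5%, each from 1 sample. Over all tiles more than 50 kb from genes, neutrophils averaged 83.3%, fat 78.1% and the cultures 80.25%. Fat was thus well below its own level elsewhere, so that low methylation at the distal tiles was not particular to hepatocytes. In the cultures the level was alike in and outside H3K4me1 peaks, 70.5% ± 1.99 and 70.7% ± 1.455 (SD, n = 2).

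ATAC peaks were found at distal tiles in each of the 4 libraries, mostly in those with H3K4me1. ATAC peaks overlapped 3.78 and 7.015% of distal tiles in the 2 WT libraries and 4.55 and 4.87% in the 2 DKO libraries, against 0.243 to 0.442% of all tiles at that distance. In H3K4me1 peaks the shares were 11.96 and 19.3% in WT and 12.49 and 13.6% in DKO, where all tiles over 50 kb from genes in such peaks had 9.06 and 12.3% in WT and 11.5 and 12.48% in DKO. That difference from the background was not tested. The WT and DKO libraries overlapped, with a difference over the 25544 distal tiles of 0.689 points (exact two-sided permutation p = 1, in a design of 2 against 2 that cannot pass 0.05), and the sign of that difference rested on WT replicate 2, without which it was -0.928 points. Distal tiles in H3K4me1 peaks were more often in ATAC peaks than marked tiles inside genes, by 8.01 points on average (5.24 to 10.9, higher in 4 of 4 libraries, exact sign-flip permutation p = 0.125, the smallest 4 libraries allow). The 692 distal tiles in ATAC peaks of both WT libraries averaged 65.8% in newborn, 8.21% in adult WT and 65.15% in DKO, and 91.3% of them were at least 35 points above adult WT in the DKO. Of these, 255 also lay in WT peaks of both histone marks.

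HNF6, the ONECUT1 factor, bound few distal tiles. Peaks overlapped 1.05 and 1.71% of them in WT and 1.32 and 3.83% in DKO libraries, against 0.0366 and 0.0782% (WT) and 0.0769 and 0.444% (DKO) of all tiles over 50 kb from genes. In H3K4me1 peaks the shares were 3.28 and 5.07% in WT and 3.93 and 9.77% in DKO, against 1.78 and 2.75% and 2.93 and 6.80% of all such tiles in those peaks. DKO replicate 2 had 34665 peaks where the other 3 libraries had 4387 to 9355, and WT minus DKO, -1.19 points with it (exact permutation p = 0.667), was 0.0626 points without it. In H3K4me1 peaks the HNF6 share exceeded that of marked tiles inside genes by 2.94 points (1.83 to 5.01, 4 of 4 libraries, exact permutation p = 0.125).

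Histone marks at the distal tiles were found at similar frequency with and without Tet2 and Tet3. H3K4me1 peaks overlapped 25.4% of distal tiles in WT and 25.6% in DKO, against 1.64 and 1.99% of all tiles over 50 kb from genes and 65.7 and 60.7% of falling tiles in genes. H3K27ac peaks overlapped 10.7% in WT and 10.1% in DKO, against 0.700 and 0.792% of all tiles over 50 kb from genes. The peaks were largely at the same tiles, since 5154 tiles lay in H3K4me1 peaks of both genotypes (79.45% of the WT set and 78.8% of the DKO set), and 1884 in H3K27ac peaks of both (68.8 and 72.8%). The 1333 tiles whose H3K4me1 peak was called in WT alone averaged 20.55% in adult WT and 74.3% in DKO, and the 5154 shared ones 17.2 and 71.8%. With 1 library per genotype no test was possible.

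A 5hmC peak at 20 days overlapped 14.3% of distal tiles (Wilson 95% interval 13.9 to 14.7%), against 8.84% of all tiles over 50 kb from genes and 21.7% of falling tiles in genes. The share was 18.5% in H3K4me1 peaks and 12.9% outside, where all tiles over 50 kb from genes had 15.6 and 8.725%. Tiles that rose in methylation, 5909 in number, had a share of 13.25%, so that 5hmC peaks were not particular to falls. By distance the share went from 17.7% at 50 to 100 kb to 10.8% beyond 800 kb. Tiles with a 5hmC peak reached the DKO difference of 35 points in 49.2% and those without in 44.3%.

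**Figure D5:**
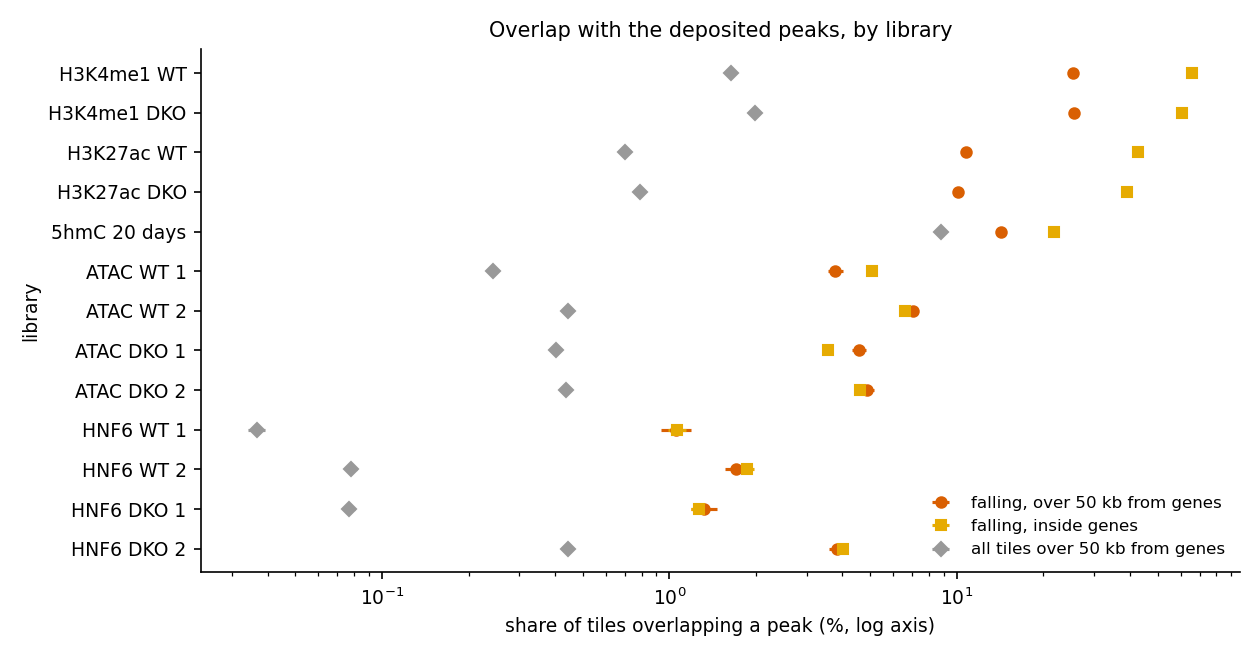
Share of tiles (%, log axis) that overlap a peak, for each of the 13 libraries, in distal falling tiles, falling tiles inside genes and all tiles over 50 kb from genes. Bars are Wilson 95% intervals. Distal falling tiles lie to the right of all tiles over 50 kb from genes in each library, lie left of the gene tiles for both histone marks and 5hmC, and lie next to them for ATAC and HNF6.

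Most distal tiles, 14819 (58.0%), overlapped no peak of any library. This share was not computed for all tiles over 50 kb from genes. Each library overlapped a smaller share of those than of the distal tiles, at most 8.84% (5hmC), so that 58.0% does not mark the distal tiles as poor in peaks. The distal tiles in no peak averaged 80.5% in newborn, 38.3% in adult WT and 63.3% in DKO. Of them, 24.8% were at least 35 points above adult WT in the DKO. CpGs were counted for the wider set of distal tiles outside H3K4me1 peaks, which was poor in them. Of these falling tiles 15214 (79.8%) held a single CpG, against 48.8% of all tiles over 50 kb from genes outside peaks. The share was 41.3% of falling tiles in H3K4me1 peaks. It was 86.3% of rising tiles over 50 kb from genes, in and outside peaks. Of tiles outside peaks with 1, 2, 3, 4 to 5 and 6 or more CpGs, 1.29, 0.3965, 0.259, 0.1895 and 0.127% fell and 0.427, 0.0861, 0.04395, 0.0274 and 0.0168% rose. The DKO share of 35 points was 25.8% in tiles with 1 CpG, 43.4% with 2, 58.4% with 3, 64.95% with 4 to 5 and 54.7% with 6 or more. In H3K4me1 peaks this share was 85.6% with 1 CpG and 93.9% with 6 or more, so that CpG number mattered less there. The value of a tile with 1 CpG rests on a single site and an unknown depth, and the part of that in the falls outside peaks was not tested.

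Binding motifs of liver factors were compared between distal tiles and all tiles of that distance. Each motif was searched on both strands as fixed letters. The HNF4 letters CAAAGTCCA matched 0.720% of distal tiles, 1.25% of those in H3K4me1 peaks and 0.541% of those outside, against 0.239% of all tiles over 50 kb from genes, 0.682% of those in H3K4me1 peaks and 0.2315% outside. The ONECUT letters ATTGATT matched 6.37%, 6.89% and 6.19%, against 3.69%, 4.47% and 3.67%. Among tiles with 1 CpG outside peaks the ONECUT share was 6.21% for falling, 4.30% for all and 3.66% for rising tiles. Shares were 12.85% against 10.3% for the C/EBP letters TTGCNNAA, 1.08% against 0.746% for GGTCANAGG, part of the PPAR/RXR site, 3.73% against 3.13% for FOXA (TGTTTAC) and 0.947% against 0.747% for HNF1 (GTTAATNAT). The STAT5 letters TTCNNNGAA matched 9.43% against 8.36%, while the steroid receptor letters ACANNNTGT (6.63 against 6.495%) and CTCF (CACNAGGNG, 1.33 against 1.35%) were near the share of all tiles over 50 kb from genes. Within H3K4me1 peaks the FOXA (4.30 against 4.09%), PPAR/RXR (1.603 against 1.52%) and HNF1 (1.25 against 1.12%) shares of distal tiles were near those of all tiles in these peaks. The steroid receptor share was also near (7.11 against 6.98%). C/EBP matched 14.0 against 11.1% there, STAT5 9.71 against 7.42%, and CTCF, lower in distal tiles, 1.34 against 2.00%. Some matches shared bases or tiles with another motif, C/EBP and ONECUT occurring together in 255 tiles.

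The genes nearest to distal tiles were called about as often as all genes tested. Expression is given in FPKM, fragments per kilobase of transcript scaled to library size, and the test was limma on log2(FPKM + 1) with Benjamini-Hochberg adjustment over 11166 genes. Of 3140 nearest genes 1217 passed the filter, and 232 of these (19.1%) changed in DKO mice injected at 1 day against their controls, where 20% of all tested genes did. Of these 52 rose (4.27%, background 4.33%) and 180 fell (14.8%, background 15.6%). Nearest genes of tiles in H3K4me1 peaks had 126 of 640 called (19.7%). Between 3 and 15 weeks in WT, 442 changed (36.3%, background 33.3%), 303 of them higher (24.9%, background 24%) and 139 lower (11.4%, background 9.32%), with age and sex again not told apart. Leaving out 1 library moved the DKO count to between 100 and 234, and the share of all genes moved with it, to between 7.84 and 20.6%.

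The 10 genes nearest to the most distal tiles bordered gene-poor stretches, and most were silent or nearly so. Pcdh17, a protocadherin gene, was nearest to 105 distal tiles, 4 of them in H3K4me1 peaks, and the synaptic adhesion genes Lrrc4c and Lphn3 to 79 and 74. Cdh8, Brinp3, Olfm4, Cntnap5a, Pcdh9 and Ncam2 were nearest to 66 to 77 tiles each, with 0 to 5 in H3K4me1 peaks. Gm1653 was the exception, with 32 of its 66 tiles in H3K4me1 peaks. None of the 10 passed the expression filter of 1 FPKM in a condition. Ncam2 came closest, at 0.910 to 0.941 FPKM in controls injected at 1 day and 0.190 to 0.377 in the matching DKO mice. Uninjected WT mice had 0.190 to 0.450 at 3 weeks and 0.593 to 0.874 at 15 weeks. The control injected at 3 weeks that had Xist was at 0.233. The change in Ncam2 was not tested.

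The nearest genes named next were picked for the size of their change in the DKO, so that the size is a description. Glul, which encodes glutamine synthetase, had 185.7, 76.7 and 183.8 FPKM in controls and 9.76, 11.75 and 11.6 in DKO mice, a log2 difference of -3.53 (SE 0.565, adjusted p = 0.00102). It was nearest to 8 distal tiles, 6 in H3K4me1 peaks. Sucnr1, the succinate receptor gene, with 5 of 9 tiles in H3K4me1 peaks, had 21.95, 22.5 and 22.4 FPKM in controls and 2.78, 2.59 and 3.40 in DKO mice (log2 -2.57, SE 0.328, adjusted p = 0.000167). Slc10a2, a bile acid transporter gene nearest to 56 distal tiles but with 3 in H3K4me1 peaks, went from 10.05, 10.7 and 10.9 to 0.575, 1.56 and 1.73 FPKM (log2 -2.38). Nxpe2 was lower by a log2 difference of -2.26 with 1 tile. These 4 fell with no overlap between the groups and kept their calls on leaving out each of the 6 libraries in turn.

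The genes that rose were Myc, Col5a2, Fst and 9030619P08Rik. Myc, a growth-promoting transcription factor gene with 2 distal tiles, both in H3K4me1 peaks, had 2.10, 9.82 and 2.62 FPKM in controls and 27.8, 56.0 and 24.1 in DKO mice (log2 2.80, SE 0.578, adjusted p = 0.00579). Other 15-week libraries overlapped this range, as controls injected at 3 weeks had 10.5, 33.4 and 14.4 FPKM, while DKO mice injected at 3 weeks had 5.74 and 3.27. Fst, whose product follistatin binds activin, had 1.49 to 2.73 FPKM in controls and 15.2 to 16.2 in DKO mice with 1 unmarked tile (log2 2.42). Col5a2, a collagen chain gene with 1 unmarked tile, had a log2 difference of 2.45. 9030619P08Rik, with 4 of 6 tiles in H3K4me1 peaks, had 2.56 (adjusted p = 0.0221), a call lost without DKO replicate 2 or control replicate 3 (highest adjusted p = 0.0762). WT libraries reached higher values of this gene than the 9.71 to 23.4 FPKM of these DKO mice, with 33.2 to 44.3 at 3 weeks and 27.7 in the control injected at 3 weeks that had Xist. Mup8 and Mup13, near-identical members of the major urinary protein family, also passed the test but were listed at 0 in all 3 controls, so that no fold is given, and both calls were lost without control replicate 3 (highest adjusted p = 0.05 and 0.0515). In controls injected at 3 weeks Mup8 was listed at 1358, 0 and 629 FPKM, with 2 of these above the 123 to 206 of the DKO mice, and Mup13 was much the same (1259, 0 and 633).

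The nearest genes of the regions described above mostly did not pass. Map3k1 was at 2.10 to 3.06 FPKM in controls and 1.295 to 1.94 in DKO mice (adjusted p = 0.165), Arid1b at 2.095 to 2.48 and 1.36 to 2.00 (adjusted p = 0.0790), and Ptpn1 at 4.03 to 4.31 and 3.125 to 3.40 (adjusted p = 0.157). Nampt, the NAD salvage enzyme gene nearest to a tile with ATAC and both marks in WT at chr12:33394201-33394400, had 6.79, 8.01 and 7.21 FPKM in controls and 8.94, 10.8 and 8.82 in DKO mice (log2 0.33, SE 0.104, adjusted p = 0.0377). That call was lost on leaving out 5 of the 6 libraries in turn. Stmnd1 and Fam92b were listed at 0 in every library of the comparison, and Cdh6 was near 0. Mir29b-1 was also listed at 0, but its interval is a short microRNA locus (chr6:31013022-31013093), so that this 0 cannot be read as no expression.

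Library identity bears on these expression values. Hepatocyte genes were abundant in all 18 libraries (Ttr 1624 to 5195 FPKM, Hnf4a 63.9 to 151.5), although Alb was listed at 0 in each and Serpina1a in most (median 0). Defining genes of other cell types were low, the stellate cell gene Dcn reaching 33.95 FPKM, Stab2 of endothelium 5.74 and the macrophage genes Cd68 and Clec4f 3.805 and 3.38, with the leukocyte gene Ptprc at most 0.130. Tet2 was 0.890 to 2.13 FPKM in controls injected at 1 day and 2.82 to 4.08 in the matching DKO mice, and Tet3 1.68 to 2.55 and 1.74 to 2.78, values over the whole gene that do not check the deleted exons. WGBS depth could not be read from the table, and the peak libraries held from 4387 (HNF6) to 287566 (5hmC) peaks, which bounds the overlaps each could give.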

How the data were processed

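WGBS and RRBS values were methylated fractions per tile, deposited by the authors after BSMAP 2.74 on mm9 (for RRBS also Trim Galore 0.3.3) with a minimum of 15 (WGBS) or 10 (RRBS) CpG readings per tile. Coverage was not among the columns, so the depth behind a fraction is unknown. RRBS columns were assigned through animal numbers shared with the expression table. Peaks, with a signal (tag count scaled to a fixed library size) and a findPeaks score, were called by the authors in each library with HOMER after cutadapt 1.15 and Bowtie2 2.2.4, so a caller threshold decides each overlap. The authors computed FPKM in Cufflinks from TopHat2 alignments. In all, 49 columns of per-sample values were not used.

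Tiles overlapped a peak by 1 bp or more. Members and gene lists were chosen with earlier results of these data known, and the splits by H3K4me1 peak, CpG number and distance were chosen after seeing the data. Per-mouse RRBS means were compared by exact permutation. Intervals (Wilson, 95%) cover counting error over tiles only, and neighbouring tiles are not independent. FPKM were tested with limma 3.58.1 (R 4.3.3) on log2(FPKM + 1) over all 18 libraries, keeping genes at 1 FPKM in a condition, at adjusted p under 0.05, and the test was checked on simulated data. Fold changes of low genes are understated on that scale. Separate mice are taken from the labels, and without this p-values measure only the spread between samples. Named regions were the 5 longest runs, the 3 largest groups, the 5 tiles in ATAC peaks of both WT libraries and WT peaks of both marks with the largest fall, and the 3 with RRBS in every hepatocyte column. Named genes were those nearest to these, the 10 nearest to most tiles, and the 10 nearest genes with the largest DKO change. Same-numbered ATAC and HNF6 libraries did not deviate together (correlations -0.0763 and -0.142). Sequences came from the NCBIM37 genome with pysam 0.24.0 (Python 3.11.15, numpy 2.4.6, pandas 2.3.3, scipy 1.17.1, matplotlib 3.10.9). The share of repeats was not computed.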

Additional observations from a re-analysis of the deposited data

Results flagged for a closer look

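Among the distal tiles, the RRBS difference between DKO mice and their controls was 19.8 points larger after injection at 1 day than after injection at 3 weeks, and within adult H3K4me1 peaks it was 26.8 points larger. Both were singled out because the effect of the same deletion differed between the injection times by a test of the difference itself, an exact permutation of injection time over 120 relabellings that gave p = 0.0167, the smallest they can give. Outside H3K4me1 peaks the difference was 12.1 points (exact permutation p = 0.05), and in falling tiles inside genes it was 21.15 points (exact permutation p = 0.0167). The 1-day groups and the 3-week groups each had their own controls, at 27.3 to 27.8% and 28.5 to 31.9%.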

How the results depend on the processing

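Of 151 alternative values, 105 kept their direction and side of the threshold (for counts and values without a test, they moved little) but not always their size. A further 36 moved, 6 lost the threshold and 4 turned, and no cause was tested beyond what each setting removes. For the RRBS comparisons between groups of mice, ATAC and HNF6, the designs allow no p under the threshold. Only the direction and size of those values could change, so that their side of the threshold is no check. The 6 that lost the threshold were distal minus gene tiles with each control mouse left out. There the smallest possible exact permutation p is 0.0625, so that this loss was set by the number of mice. A limit of 25 or 50 points in place of 35 gave 85377 or 7012 distal tiles. In the order over 20 kb from a gene, over 100 kb, a fall of 25 points, a fall of 50 points, the share in WT H3K4me1 peaks was 31.4, 19.9, 10.9 and 53.6%, in H3K27ac peaks 15, 6.97, 4.5 and 22.9%, in 5hmC peaks 15.35, 12.9, 12.1 and 16.1%, and the DKO share of 35 points 51.5, 39.0, 17.9 and 87.5%. With an overlap of 100 bp, the upper 50% of peaks by score, and tiles with 2 or more CpGs (chosen after seeing the data), the shares were 24.3, 15.1 and 49.8% for H3K4me1, 9.93, 6.58 and 23.3% for H3K27ac, and 11.5, 7.02 and 17.4% for 5hmC. The DKO share was 63.5% at 25 points, 24.75% at 50 points, and, in settings chosen after seeing the data, 68.65% with 2 or more CpGs, 87.2% in and 30.5% outside H3K4me1 peaks, and 42.7% over 50 kb also from GENCODE genes. Distal minus gene tiles turned to -4.16 points within H3K4me1 peaks, was 3.86 points over 20 kb, 14.25 over 100 kb, 19.2 at a fall of 25 and 1.89 at a fall of 50, and was 7.03 to 7.40 on leaving out each control mouse (exact permutation p = 0.0625, the smallest 5 mice allow). Leaving out each library gave -0.928 to 2.31 points for ATAC (turned without WT replicate 2; 1.25 with equal numbers of top peaks, 0.125 and 2.37 at falls of 25 and 50), -2.45 to 0.0626 for HNF6 (turned without DKO replicate 2, and 0.352 with equal numbers of top peaks), and 100 to 234 called nearest genes, with 100 without control replicate 3, 111 without DKO replicate 1 and 142 without DKO replicate 3. On leaving out each mouse, the RRBS differences were 44.1 to 47.6 points (1 day), 25.2 to 26.9 (3 weeks), 26.5 to 28.8 (WT of 3 weeks) and 14.7 to 22.5 (InsR KO), while at a fall of 25 points they were, in the same order, 27.1, 15.5, 14.99 and 10.7, and the first was 62.6 at a fall of 50. With a replicate block the ATAC difference was again 0.689 points, from -0.771 and 2.15 within numbers, and the HNF6 difference -1.19, from -0.266 and -2.12, or from -2.78 and 0.3915 with the HNF6 numbers crossed (added after seeing the data), none with a call. No paired analysis was possible for RRBS or expression because their columns carry no replicate numbers. With 1 library per genotype, WGBS and histone values carry no replicate error, and the depth behind single tiles is unknown.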
